A study of Mus musculus with 18 samples.

Results

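Solute carriers are the proteins that move sugars, amino acids, ions, metals, nucleosides, vitamins and metabolites across cell membranes, and their genes share the symbol stem Slc (Slco for the organic anion transporting polypeptides). The set described here holds 216 genes. They are the genes whose symbol starts with Slc and a digit, or with Slco, and whose mean level reached 2 CPM (CPM is the usual count scaled to the total of its library) in at least 1 of 6 groups of brain immune cells. The count table held 394 such genes among 57010, and 43 of the 394 had no counts at all. The measured levels therefore chose the members, and a level above the minimum is a property of the choice and not a result. Just inside the minimum, the highest group mean was 2.06 CPM for Slc47a1, 2.07 CPM for Slc22a4 and 2.09 CPM for Slc1a2. Just outside it were Slc35g2 (1.97 CPM), Slc16a12 (1.95 CPM) and Slc4a4 (1.90 CPM). Of the members, 181 reached 2 CPM in all 6 groups and 7 in only 1. A symbol of this form does not make a carrier: Slc9a3r1 and Slc9a3r2 encode scaffold proteins, and Slc4a1ap is named for binding a carrier. Slc7a6os is named for lying opposite Slc7a6, and Slc2a4rg-ps is the 1 pseudogene in the set, against 215 protein-coding genes.

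RNA was sequenced from CD11b-positive cells of male wild-type mouse brain, labelled microglia and macrophages, with 3 libraries in each group and 18 in all. The 6 groups were young mice (2 to 4 months) given vehicle or bexarotene, aged mice (18 to 20 months) given vehicle or bexarotene, and aged mice with ischemic stroke (middle cerebral artery occlusion) given vehicle or bexarotene. Bexarotene activates the nuclear receptor RXR (retinoid X receptor). It was injected into the peritoneum at 5 mg/kg the first time 24 hours after surgery and once on each of the next 2 days, saline with 3% DMSO served as vehicle, and cells were collected on day 3. Cells were freed with papain and DNase, passed over Percoll, depleted of Ly6G-positive neutrophils and then selected for CD11b with beads, so every group shares these steps. The sources used here do not give the surgery of the mice that had no stroke, the strain, or whether brains were pooled. The labels call the libraries biological replicates.

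As background, microglia take up glucose and fructose through facilitative carriers of the Slc2 family and exchange amino acids through heterodimers of Slc3a2 with light chains of the Slc7 family. Macrophages recycle iron and export it through ferroportin (Slc40a1), and they keep zinc low in the cytosol with exporters of the Slc30 family against importers of the Slc39 family. Carriers of the Slc25 family sit in the mitochondrial inner membrane, those of the Slc35 family bring nucleotide sugars into the Golgi apparatus, and several others empty the lysosome after engulfed material is digested.

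Library totals ran from 7582511 to 29359943 counts and were higher with stroke (16206144 and more) than without (at most 11852638). The 7 microglial markers used here (P2ry12, Tmem119, Sall1, Siglech, Cx3cr1, Gpr34 and Fcrls) were detected in every library. Libraries numbered 1 stood apart in markers of the choroid plexus, the epithelium that makes cerebrospinal fluid: the summed level of 6 such markers (Ttr, Kl, Folr1, Enpp2, Kcnj13 and Clic6) was 1850 to 3133 CPM in library 1 of 5 groups, against 134 to 1098 CPM in all other libraries. For age and bexarotene, the members that passed the main test are given with and without those libraries. For stroke, only the number of members that passed is given both ways, and the values of single genes rest on all libraries.

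The members took 1.55% to 1.96% of all counts in the 12 libraries without stroke and 1.18% to 1.31% in the 6 with stroke. By mean CPM over all libraries, 38 members reached 100 CPM, 153 reached 10 CPM and 63 lay below. Within groups, the members at or above 10 CPM varied by a median of 9.62% to 10.99% (coefficient of variation over 3 libraries), and those below by 33.2% to 41.7%. Divided by exon length, so that genes can be compared, the mitochondrial ADP/ATP carrier Slc25a5 (343.0 CPM per kilobase of exon, mean of all libraries) and the organic anion carrier Slco2b1 (332 CPM per kilobase) had the highest levels. They were followed by the fructose carrier Slc2a5 (214), the neutral amino acid exchanger Slc7a8 (127) and its heavy chain Slc3a2 (126.0), the lysosomal and mitochondrial nucleoside carrier Slc29a3 (97.4) and Slc25a45 (92.2), all in CPM per kilobase. The order was not the same in each condition: Slco2b1 stood at 408 ± 2.28 CPM per kilobase (SD, n = 3) in young vehicle cells, above Slc25a5 at 306 ± 20.5, and at 119 ± 15.6 in aged stroke vehicle cells, below Slc25a5 at 376 ± 24.6. Slc7a8 and Slc3a2 did not differ beyond their spread in aged vehicle cells (115 ± 7.80 and 120 ± 9.36 CPM per kilobase). Slc25a5 has near-identical copies in the genome, so its reads may be divided among them.

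**Figure D1:**
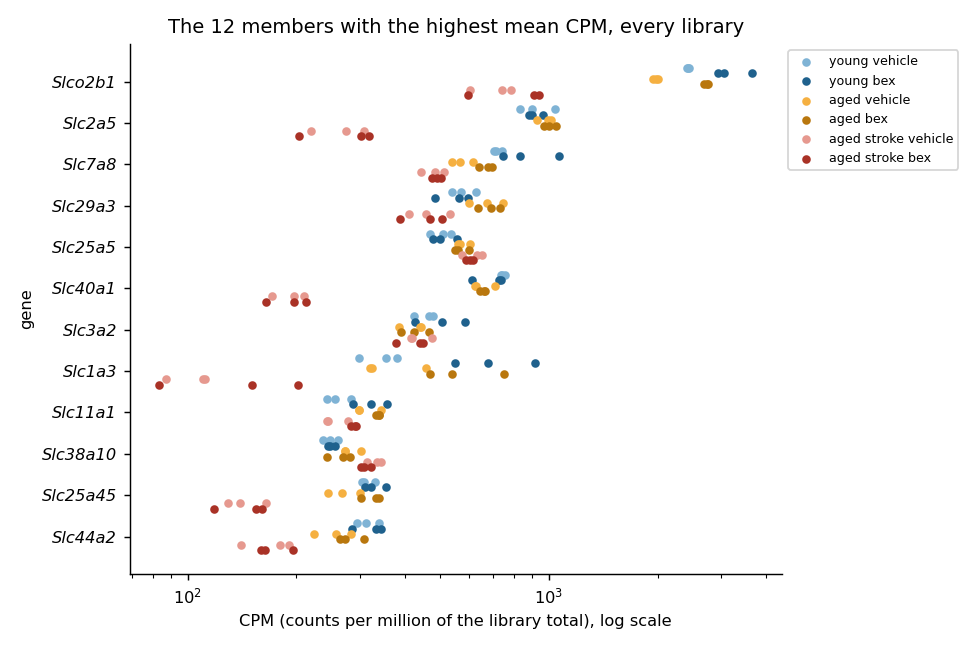
Levels of the 12 members with the highest mean CPM in all 18 libraries (horizontal log axis, CPM; 1 point per library, coloured by group). The 6 stroke libraries lie apart from the others for Slco2b1, Slc2a5, Slc40a1, Slc1a3 and Slc25a45, while those of Slc25a5, Slc3a2 and Slc38a10 lie beside or within the range of the rest.

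Comparing aged vehicle mice with and without stroke asks how carriers differ in the cells found in the brain on day 3 after arterial occlusion. Of the 216 members, 105 changed (adjusted p under 0.05, edgeR quasi-likelihood test with Benjamini-Hochberg adjustment over all 15528 genes tested, 3 libraries against 3), 46 higher and 59 lower. Among all genes tested the share called was 48.3% (members 48.6%), so the members' share in either direction is that of the background. By direction, 27.2% of all genes were higher (members 21.3%) and 21.1% lower (members 27.3%). Whether the split by direction differs from that of all genes was not tested. The median log2 fold change was -0.08 over the members and 0.02 over all genes. All 216 members passed the filter on low counts, but 16 of the called ones reached 2 CPM in only 1 of the compared groups. Among the 187 that reached it in both, 38 were higher and 51 lower. Over all 6 groups, 10 members reached it only with stroke (7 of them called, all higher) and 13 only without (5 called, all lower), directions that the rule itself fixed. Members named for that reason were picked after their values were seen. Of the 105, 44 changed over 2-fold, 24 higher and 20 lower. The share of all genes that changed over 2-fold was not counted, so these figures describe the members alone. The groups did not overlap in 121 members, 99 of them called (56.6% of all genes tested did not overlap). When the libraries numbered 1 were left out, which was decided after seeing the data, 92 members were called, 38 of them higher. Of the 105 calls, 85 held when any 1 library was left out.

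The kinds of cell in the selection moved with stroke as well. All 8 markers of monocytes and infiltrating macrophages (Ccr2, Ly6c2, Plac8, Chil3, Vcan, Fn1, F10 and Arg1) rose, and their summed level was 42.04 to 199 CPM in the 12 libraries without stroke and 2624 to 4772 CPM in the 6 with stroke. Arg1, Vcan and F10 were at 0 in some of the 18 libraries (2, 5 and 2). Of the 7 microglial markers, 6 fell, and their summed level was 26350 to 37550 CPM without and 8844 to 11930 CPM with stroke. Markers of neutrophils (4 of 8 higher; 191 to 1503 CPM without and 426 to 2800.0 CPM with stroke), of border macrophages (3 of 7 higher; 544 to 1304 and 679 to 1096 CPM) and the genes induced by cell handling (5 of 8 higher and 2 lower; 912 to 2764 and 2151 to 4960 CPM) changed in part. Between the vehicle groups themselves the sums did not overlap for neutrophils (191 to 409 CPM without and 558 to 1823 CPM with stroke), border macrophages (544 to 654 and 1019 to 1096 CPM) or handling genes (1009 to 1909 and 3283 to 4961 CPM). None of the markers of these lists was at 0 in all libraries of either kind. Between the same vehicle groups the sums were also apart for markers of B cells (468 to 597 CPM without and 273 to 387 CPM with stroke). They were apart too for the scarce markers of pericytes (3.23 to 6.73 and 8.29 to 38.2 CPM) and neurons (1.22 to 2.15 and 0.488 to 0.894 CPM). The part of these shifts in the results on carriers was not tested. In such bulk RNA, fewer cells of a type and less RNA per cell cannot be told apart.

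**Figure D2:**
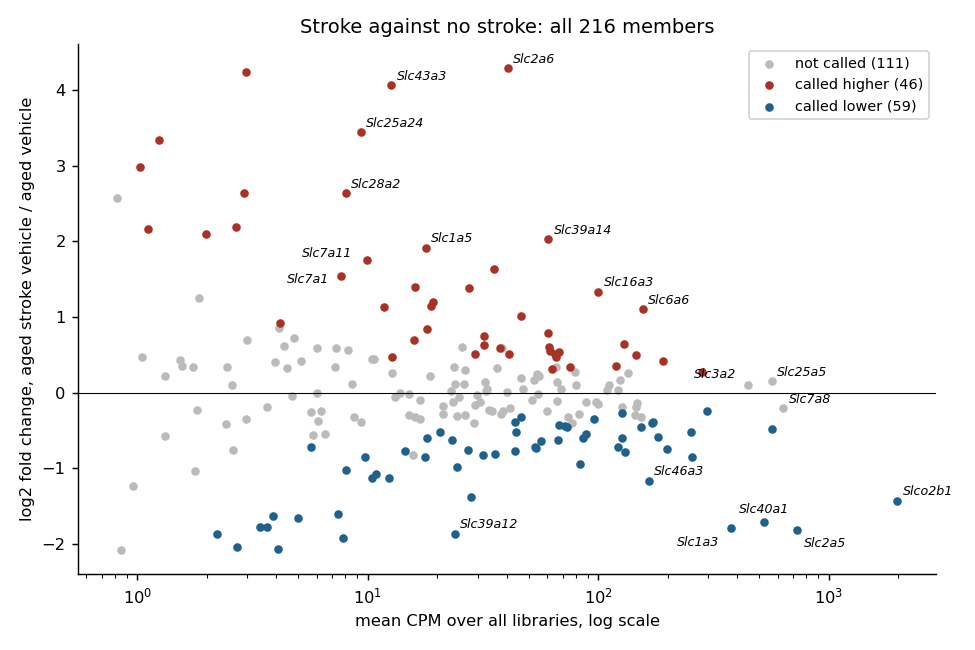
Stroke effect of every member (vertical axis, log2 fold change of aged stroke vehicle over aged vehicle) against its mean CPM over all libraries (horizontal log axis), coloured by the edgeR call. Among members with mean levels above 300.0 CPM, Slco2b1, Slc2a5, Slc40a1 and Slc1a3 lie below -1.4, and the largest rise at 10 CPM or more is that of Slc2a6 at 4.29.

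Members were grouped into transport roles by family number alone, so a role can hold members that carry something else. They changed in both directions within most groups. Of 20 members for sugars and related solutes, 8 fell and 1 rose (median log2 fold change -0.41), the most one-sided split over all members. Of the 16 that reached the minimum both with and without stroke, 6 fell and 1 rose. On that count, 0 rose and 4 fell of 8 for organic anions, organic cations and drugs. For vitamins, 0 rose and 3 fell of 6, so sugars were not the most one-sided there. Of 30 for amino acids and peptides, 10 rose and 6 fell (median 0.10), and of the 28 that reached the minimum on both sides, 10 rose and 5 fell. The 38 mitochondrial carriers split evenly, 10 higher and 10 lower (median 0.01). Of these, 1 that fell (Slc25a29) was a member only through its level without stroke, and the other 37 split into 10 and 9. The 28 for metals and heme also split evenly, 7 and 7 (median -0.12). There, 2 of those that rose (Slc39a2 and Slc41a2) were members only through their level with stroke. Of the 21 for nucleotide sugars and other solutes of the Golgi apparatus and endoplasmic reticulum, 4 rose and 7 fell. Whether any group differed from the rest was not tested.

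**Figure D3:**
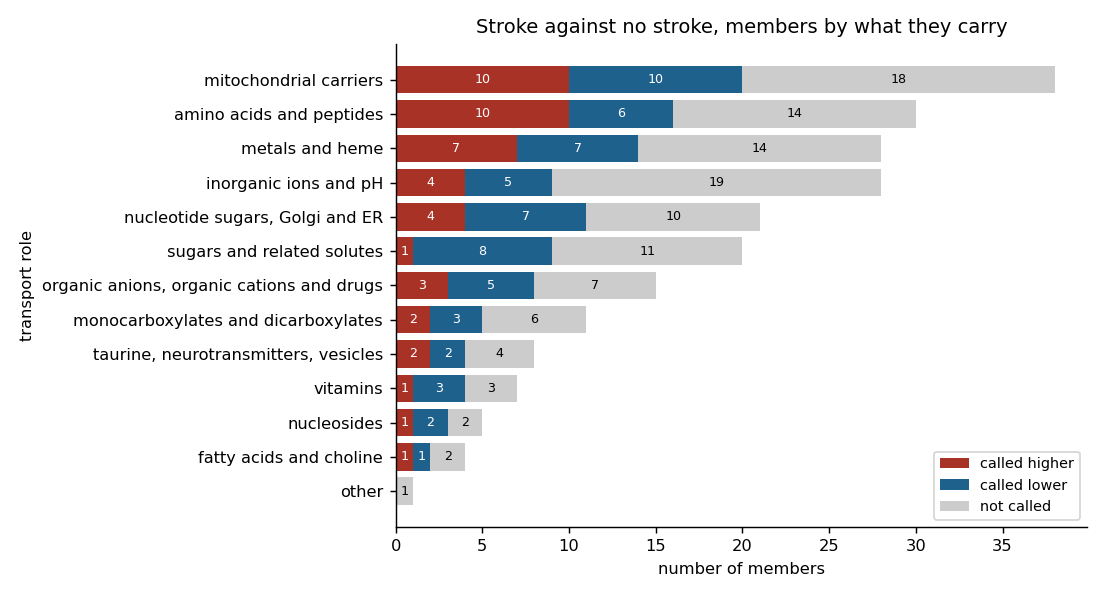
Number of members (horizontal axis) called higher, called lower or not called between aged stroke vehicle and aged vehicle cells, by transport role (1 bar per role). Roles follow the family number and not the solute of each member. The bars count all members, also those that reached the minimum level only with or only without stroke. Sugar carriers show 8 lower and 1 higher, mitochondrial carriers 10 of each, and amino acid carriers 10 higher and 6 lower; the single member of the role named other (the urea carrier Slc14a1) was not called.

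Among sugar carriers the most abundant fell and a scarce one rose. Slc2a5 encodes the fructose carrier GLUT5, which in brain is known as a microglial gene. Its level was 996, 927 and 1011 CPM in the aged vehicle libraries and 308, 274 and 220.0 CPM in those with stroke. All stroke libraries were far below all others, and the fall was -1.82 ± 0.14 (log2 fold change ± SE, adjusted p = 1.85e-08). Slc2a6, which encodes GLUT6, a lysosomal member of the family, was at 4.36, 6.44 and 3.94 CPM without and 76.8, 89.8 and 111 CPM with stroke. It rose by 4.29 ± 0.48, the largest rise among members of at least 10 CPM whose groups did not overlap, and the aged stroke bexarotene libraries held 123, 140.1 and 119.9 CPM, each above every stroke vehicle library but not called (0.47 ± 0.38, adjusted p = 0.952). In the 12 libraries without stroke it did not exceed 10.0 CPM. The inositol carrier Slc5a3 fell by 1.13 ± 0.31 and the sugar phosphate exchanger Slc37a2 of the endoplasmic reticulum fell by 0.40 ± 0.10. Slc2a8 (-0.73 ± 0.11) and Slc50a1 (-0.64 ± 0.12), named after their values were seen, fell too. The carriers best known for glucose were not called: Slc2a1 (GLUT1) averaged 87.1 CPM without and 102 CPM with stroke (0.27 ± 0.19), and Slc2a3 (GLUT3) averaged 14.2 and 20.96 CPM (0.60 ± 0.53).

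Amino acid carriers changed in both directions: of the 9 members of family 7, 3 rose and 1 fell, and of the 7 of family 38, 3 rose and 1 fell. The 9 include Slc7a6os, which is placed there by its symbol alone. Slc7a11 (xCT) exchanges cystine for glutamate and so feeds glutathione synthesis. It stood at 5.41, 10.5 and 5.07 CPM in the aged vehicle libraries and 27.2, 18.2 and 22.7 CPM in those with stroke, with no overlap, a rise of 1.75 ± 0.31 (adjusted p = 0.000148). Slc1a5 (ASCT2), a glutamine carrier, rose by 1.92 ± 0.23, from 10.7, 10.5 and 8.16 CPM to 35.7, 39.6 and 32.1 CPM. Slc7a1 (CAT1), which imports arginine and lysine, rose by 1.54 ± 0.29, from 4.36, 6.64 and 5.44 CPM to 13.1, 20.9 and 12.6 CPM. Every stroke library of these 3 genes lay above every aged vehicle library. Slc43a3, placed here by its family and known as a nucleobase carrier, was at 1.90, 2.44 and 1.22 CPM without and 15.3, 37.9 and 36.9 CPM with stroke, a rise of 4.07 ± 0.40. Smaller rises were those of the glutamine carriers Slc38a1 (0.48 ± 0.11) and Slc38a2 (0.42 ± 0.11), of Slc38a10 (0.28 ± 0.09) and of the leucine exchanger Slc7a5 (LAT1, 0.61 ± 0.19). Slc38a2 lost its call without aged vehicle library 3 (adjusted p = 0.051), Slc38a10 without any of 3 libraries (0.0692 to 0.129), and Slc7a5 without aged vehicle library 1 or 3 or aged stroke vehicle library 2 (0.0512 to 0.174).

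The promoter of Slc7a11 is shown because amino acid shortage is known to act through amino acid response elements, at which the factor ATF4 binds with a partner. The 250 bases before its RefSeq transcript start (GRCm38.p6, chr3:50443614-50443863, minus strand) held the letters TGATGNAA 2 times (both strands searched), starting 66 and 47 bases before the start and not overlapping. Capitals mark both matches, which face each other.
Slc7a11: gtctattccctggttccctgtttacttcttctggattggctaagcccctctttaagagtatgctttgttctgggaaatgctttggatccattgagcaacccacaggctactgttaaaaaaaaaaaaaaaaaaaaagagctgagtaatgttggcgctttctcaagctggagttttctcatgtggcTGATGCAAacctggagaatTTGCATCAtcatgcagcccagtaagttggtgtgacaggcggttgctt
Of 27025 genes in the RefSeq table, 3.91% held such a match in the same window of any of their starts. Of the 162 members with an entry, 4 did, among them 1 of the 33 that rose and 3 of the 47 that fell with stroke. A match is a description of letters and not of a site in use.

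Slc1a3 (GLAST, EAAT1) clears glutamate and is best known from astrocytes. It was at 325, 319 and 458 CPM in the aged vehicle libraries and 111, 112 and 87.3 CPM in those with stroke, a log2 fold change of -1.79 ± 0.28 with no overlap. The summed level of 6 astrocyte markers (Aldoc, Gja1, Aqp4, Gfap, Fgfr3 and Gjb6) was 7.86 to 37.6 CPM without and 11.4 to 41.6 CPM with stroke. Their median log2 fold change was -0.96: Gfap was called, higher (1.84 ± 0.60), Gja1 was higher without a call (1.13 ± 0.55), and Aldoc, Aqp4, Fgfr3 and Gjb6 were lower without a call (-0.74 to -1.91). Their part in the fall of Slc1a3 was not tested. Of the partners of Slc3a2, Slc7a7 (y+LAT1) fell by 0.45 ± 0.08, while Slc7a8 (LAT2) averaged 574 and 479.7 CPM and missed the threshold (-0.21 ± 0.10, adjusted p = 0.0817), as did Slc3a2 itself (422 and 437 CPM, 0.10 ± 0.13).

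The lysosomal carriers of this role did not move together. Slc15a3 and Slc15a4 both export histidine and small peptides, among them muramyl dipeptide, from endosomes and lysosomes. Slc15a3 rose from 14.8, 15.6 and 17.2 CPM to 46.2, 35.4 and 38.5 CPM (1.39 ± 0.16), and Slc15a4 fell from 138, 175 and 181 CPM to 106, 116 and 92.9 CPM (-0.60 ± 0.17). In each case the libraries of the compared groups did not overlap. Slc38a9, the arginine carrier that informs the growth kinase complex mTORC1, fell by 0.72 ± 0.15, and the amino acid exporter Slc36a1 was not called (-0.30 ± 0.17).

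Carriers of iron and zinc changed in both directions. Slc40a1 encodes ferroportin, the exporter of cellular iron. Its level was 629, 709.5 and 626 CPM without and 209.9, 196 and 171 CPM with stroke, a log2 fold change of -1.72 ± 0.11 (adjusted p = 1.43e-09), and the stroke bexarotene libraries were at 213, 165 and 197 CPM. None of the 12 libraries without stroke was below 611 CPM and none of the 6 with stroke above 213 CPM. Slc39a14 (ZIP14), which imports zinc, manganese and iron not bound to transferrin, was at 33.9, 32.8 and 29 CPM without and 99.1, 149 and 128 CPM with stroke, a rise of 2.03 ± 0.18 (adjusted p = 6.51e-08). Of the endosomal iron exporters, Slc11a1 (NRAMP1) fell by 0.24 ± 0.09, a call lost without aged vehicle library 1 or aged stroke vehicle library 2 or 3 (adjusted p = 0.0695 to 0.0937), and Slc11a2 (DMT1) was not called (-0.25 ± 0.15). The heme carrier Slc48a1 rose by 0.54 ± 0.12 and the copper importer Slc31a1, named after its values were seen, by 0.50 ± 0.12. Of 13 partner genes of carriers, 6 rose and 2 fell, with a median of 0.10, where 27.2% of all genes tested rose and 21.1% fell. The iron store genes Fth1 (2151 to 5837 CPM, 1.49 ± 0.13) and Ftl1 (1.67 ± 0.14) rose. Ncoa4, which delivers ferritin to the lysosome, fell (-0.64 ± 0.09), as did Hfe (-0.50 ± 0.12), a regulator of iron uptake.

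Slc30a1 (ZNT1) exports zinc from the cell and is a known target of the zinc-sensing factor MTF1, like the metallothionein genes. It rose from 15.8, 15.03 and 10.04 CPM to 35.4, 23.7 and 30.5 CPM with no overlap (1.19 ± 0.17, adjusted p = 1.85e-05). Mt1, which encodes a zinc-binding metallothionein, was at 23.9, 31.9 and 27.8 CPM without and 85.8, 81.5 and 92.2 CPM with stroke (1.69 ± 0.20), and Mtf1 itself was not called (-0.14 ± 0.13). The importer Slc39a12 fell from 46.5, 33.1 and 32.4 CPM to 17.2, 7.80 and 4.32 CPM (-1.87 ± 0.39), and the scarce Slc39a1 rose from 2.87 to 5.27 CPM (0.93 ± 0.23), a call lost without the filter on low counts (adjusted p = 0.0554). The promoter of Slc30a1 is shown for the core of the metal response element at which MTF1 binds, searched as TGCACNC and TGCGCNC on both strands. The 250 bases before the start (GRCm38.p6, chr1:191906531-191906780, plus strand) held 1 match, which begins 43 bases before the start and is in capitals.
Slc30a1: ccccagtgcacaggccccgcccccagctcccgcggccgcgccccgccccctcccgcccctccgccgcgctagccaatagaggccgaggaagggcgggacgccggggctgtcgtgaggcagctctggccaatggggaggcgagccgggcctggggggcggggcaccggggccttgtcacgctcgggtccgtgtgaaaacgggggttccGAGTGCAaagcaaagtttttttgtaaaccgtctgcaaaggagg
This core is short, and 23.8% of all genes in the table held it, as did 52 of 162 members. Among members with an entry, it was held by 12 of 33 that rose and 14 of 47 that fell with stroke.

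Among carriers of lactate and related acids, 2 of 11 rose and 3 fell (median 0.25). Slc16a3 (MCT4) exports lactate from glycolytic cells, and it was at 53.98, 78.4 and 74.8 CPM in the aged vehicle libraries and 149.5, 163 and 193 CPM in those with stroke. Its rise of 1.34 ± 0.18 left no overlap, and the stroke bexarotene libraries stood at 189.6, 183 and 165 CPM. Slc16a1 (MCT1) was not called (51.5 and 58.9 CPM, 0.25 ± 0.15). These carriers need a chaperone: Bsg (basigin), the usual one, was not called (0.10 ± 0.10), and Emb (embigin) rose from 20.8 to 197 CPM (3.31 ± 0.29). Slc16a10, known as a carrier of aromatic amino acids, rose by 1.39 ± 0.18, and the dicarboxylate carrier Slc13a3 fell by 1.13 ± 0.25. The promoter of Slc16a3 is shown for the core of the hypoxia response element, searched as ACGTG on both strands. The 250 bases before its start (GRCm38.p6, chr11:120948817-120949066, plus strand) held 2 matches, beginning 27 and 14 bases before the start.
Slc16a3: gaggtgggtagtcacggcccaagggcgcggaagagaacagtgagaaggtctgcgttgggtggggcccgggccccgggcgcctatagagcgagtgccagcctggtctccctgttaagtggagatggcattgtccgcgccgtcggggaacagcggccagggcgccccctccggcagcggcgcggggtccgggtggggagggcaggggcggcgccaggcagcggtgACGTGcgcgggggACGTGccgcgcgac
Capitals mark both matches. The same letters were found in 18.5% of all genes in the table, in 41 of 162 members, in 10 of 33 members that rose and in 5 of 47 that fell with stroke.

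Mitochondrial carriers changed in both directions. Slc25a24, a calcium-regulated ATP-Mg/phosphate carrier, was at 2.56, 2.83 and 2.44 CPM without and 32.8, 24.5 and 25.04 CPM with stroke, a rise of 3.44 ± 0.40, while its relative Slc25a23 fell by 1.60 ± 0.23, from 12.7, 10.2 and 9.29 CPM to 4.14, 3.66 and 2.39 CPM. In neither gene did the groups overlap. The glutamate carrier Slc25a22 rose from 25.7, 20.01 and 21.02 CPM to 75.2, 71.2 and 53.5 CPM (1.64 ± 0.15). The carnitine-acylcarnitine carrier Slc25a20, which brings fatty acids in for oxidation, rose by 0.75 ± 0.15, and the NAD carrier Slc25a51 by 0.60 ± 0.14. Slc25a45 fell from 271 to 145 CPM (-0.86 ± 0.10). The ADP/ATP carrier Slc25a5 (0.15 ± 0.10) and the citrate carrier Slc25a1 (0.02 ± 0.12) were not called. Named after their values were seen, the phosphate carrier Slc25a3 (0.64 ± 0.11), the dicarboxylate carrier Slc25a10 (1.14 ± 0.15) and the glutathione carrier Slc25a39 (0.52 ± 0.11) rose. Slc25a30 (0.48 ± 0.19, adjusted p = 0.049) lost its call without any of 5 libraries (0.0652 to 0.301).

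Of 15 carriers of organic anions, organic cations and drugs, 3 rose and 5 fell (median -0.22), but the 3 that rose (Slco3a1, Slc22a4 and Slc22a15) were members only through their level with stroke, so the rule fixed their direction. Among the 8 that reached the minimum on both sides, 0 rose and 4 fell. Slco2b1, a broad carrier of steroid conjugates and drugs that is known as a microglial gene, was at 2012, 1946 and 1986 CPM without and 742, 785 and 607 CPM with stroke. It fell by 1.43 ± 0.13 (adjusted p = 7.48e-08), and no stroke library came near the others. Slco3a1, a related carrier, averaged 0.478 CPM without and 8.80 CPM with stroke (4.24 ± 0.57, given as a description), and 10 of the 12 libraries without stroke held it below 0.8 CPM. Summed over all 15 members of this role, the level was 2261 CPM in aged vehicle cells and 923 CPM in those with stroke.

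Of 7 vitamin carriers 3 fell and 1 rose (Slc52a3, a member only through its level with stroke), of 5 nucleoside carriers 2 fell and 1 rose, and of 4 carriers of fatty acids and choline 1 fell and 1 rose. Slc46a3, a lysosomal carrier, fell from 219, 212 and 203 CPM to 94.3, 87.8 and 90.4 CPM (-1.16 ± 0.14), and Slc46a1, the proton-coupled folate carrier, from 139.7, 137 and 133 CPM to 71.8, 82.6 and 85.1 CPM (-0.72 ± 0.10). Both were separated from every aged vehicle library. The nucleoside carriers Slc29a3 (-0.48 ± 0.11) and Slc29a1 (-0.78 ± 0.14) fell. Slc28a2, a concentrative purine nucleoside carrier, rose from 3.46 to 20.9 CPM (2.64 ± 0.31); the mouse has a near-identical copy of this gene, so the division of reads is uncertain. Among choline carriers Slc44a2 fell by 0.52 ± 0.13, and Slc44a1 rose by 0.34 ± 0.13, a call lost without any of 5 libraries (adjusted p = 0.051 to 0.328). The fatty acid carrier Slc27a1 was not called (0.59 ± 0.24, adjusted p = 0.0532).

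Of 8 carriers for taurine, neurotransmitters and vesicle loading, 2 rose and 2 fell, and 1 of those that rose (Slc6a8) was a member only through its level with stroke. Slc6a6, the taurine carrier, was at 123, 125 and 88.3 CPM in the aged vehicle libraries and 248, 223 and 224 CPM in those with stroke, and it rose by 1.10 ± 0.11 with no overlap (adjusted p = 3.69e-07). Slc18b1, which loads polyamines into vesicles, fell by 1.38 ± 0.19, from 34.9, 39.2 and 42.3 CPM to 13.4, 14.1 and 15.6 CPM, and Slc17a9, which loads ATP into vesicles and was named after its values were seen, fell by 1.08 ± 0.20. Of 28 members for inorganic ions and pH, 4 rose and 5 fell (median 0.05). The endosomal sodium-proton exchanger Slc9a9 fell from 227, 223 and 212 CPM to 128, 139 and 113 CPM (-0.75 ± 0.10), and the potassium-chloride cotransporter Slc12a7 (KCC4) rose from 36.4, 27.6 and 33.5 CPM to 47.3, 95.1 and 49.5 CPM (1.02 ± 0.21). In the Golgi apparatus and endoplasmic reticulum, Slc35b1, which brings ATP into the endoplasmic reticulum, rose by 0.79 ± 0.09 and Slc35a5 fell by 0.58 ± 0.10.

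**Figure D4:**
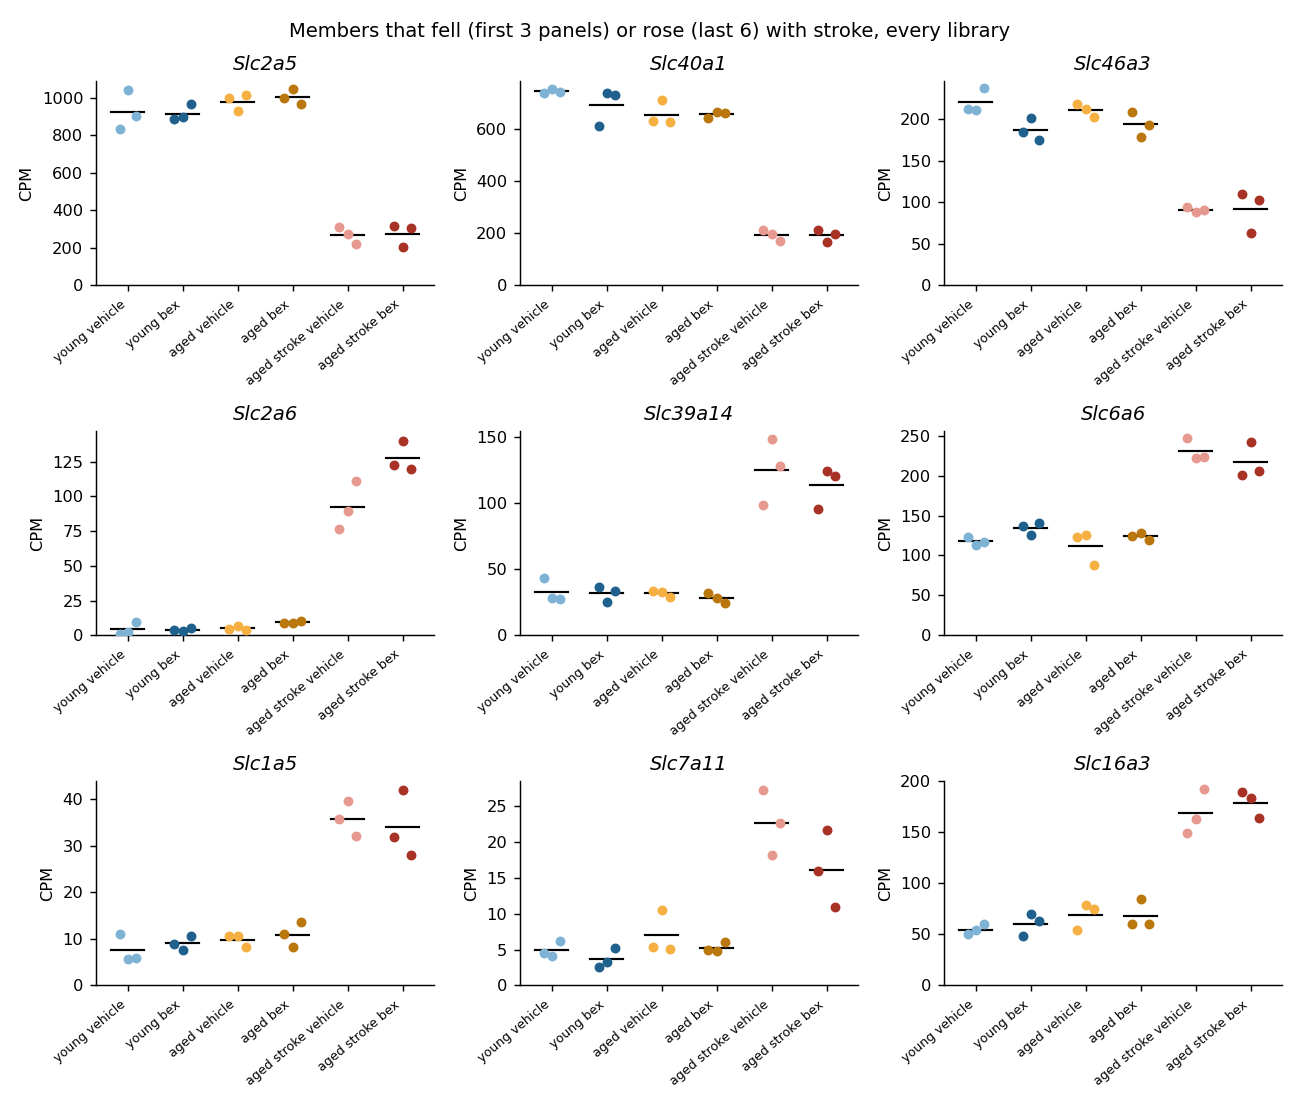
Level of 9 members in every library (vertical axis, CPM from 0; 3 points per group and a bar at the group mean). Slc2a5, Slc40a1 and Slc46a3 are lower in the 6 stroke libraries than in the 12 others, and Slc2a6, Slc39a14, Slc6a6, Slc1a5, Slc7a11 and Slc16a3 are higher.

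Carriers without an Slc symbol were followed as a list of 38 genes, 35 of them tested. With stroke, 12 of the 35 rose and 7 fell (median 0.09), where 27.2% of all genes tested rose and 21.1% fell. The genes named next all rose, and none of the 7 that fell is named. Mfsd6 went from 6.64 to 35.7 CPM (2.47 ± 0.28), Mfsd12, which brings cysteine into lysosomes, from 31.1 to 71.98 CPM (1.26 ± 0.11), and Mfsd1, a lysosomal dipeptide carrier, from 270.4 to 442 CPM (0.76 ± 0.08). The mitochondrial carrier Ucp2 rose from 512 to 960.0 CPM (0.96 ± 0.23). In the comparisons of age and of bexarotene within each setting, none of this list was called.

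Few carriers differed with age. Between aged and young vehicle cells, 3 of 216 members were called, 1 higher and 2 lower. That is a share of 1.39% against 1.7% of all genes tested (1.26% higher and 0.438% lower), and 21 members (9.72%) had an unadjusted p under 0.05, against 13.1% of all genes. Marker lists moved with age too: 2 of 7 markers of border macrophages fell, and their summed level was 850 to 1049 CPM in young and 544 to 654 CPM in aged vehicle libraries, without overlap. The summed level of the scarce pericyte markers, of which 0 were called, was 2.02 to 2.51 CPM in young and 3.23 to 6.73 CPM in aged libraries. That of the 7 microglial markers, of which 0 were called, was 33660 to 37550 CPM in young and 28760 to 29530 CPM in aged libraries, and the part of these lists in the results on age was not tested. The sodium-calcium exchanger Slc8a1 was at 99.8, 77.02 and 58.8 CPM in young and 56.8, 48.01 and 51.1 CPM in aged vehicle libraries (-0.59 ± 0.15, adjusted p = 0.045). The magnesium carrier Slc41a1 was at 38.99, 40.9 and 43.9 CPM in young and 32.2, 29.1 and 28.4 CPM in aged libraries (-0.47 ± 0.11, adjusted p = 0.0386). In both genes every aged library lay below every young one. Slc2a10 (GLUT10), named after its values were seen, was scarce and reached the minimum of 2 CPM in the aged group of this pair alone, at 0.398, 1.58 and 1.49 CPM in young and 3.61, 6.93 and 3.10 CPM in aged libraries (1.97 ± 0.49, adjusted p = 0.0499). These calls were narrow: Slc41a1 and Slc2a10 each lost theirs when any 1 of the 6 libraries was left out (adjusted p = 0.0515 to 0.142 and 0.0526 to 0.266), Slc8a1 when any but young vehicle library 3 was (0.0671 to 0.273), and none was left without the libraries numbered 1. The authors' deposited table lists 7 members for age: Slco4a1 (-0.47), Slc7a8 (-0.25), Slco2b1 (-0.23), Slc8a1 (-0.31) and Slc39a10 (-0.25) as lower, and Slc39a4 (1.05) and Slc2a10 (0.70) as higher on the log2 scale. Of these, Slc7a8 averaged 719.5 ± 18.8 CPM (SD, n = 3) at the young and 574 ± 39.04 CPM at the old age, and Slco2b1 2428 ± 13.6 and 1981 ± 33.1 CPM, without overlap in either. The age groups did not overlap in 39 of the 216 members, and the share over all genes was not counted. In the edgeR fit Slc7a8 (-0.32 ± 0.10, adjusted p = 0.102) and Slco2b1 (-0.29 ± 0.13, adjusted p = 0.311) missed the threshold.

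Bexarotene against vehicle called 2 members in young mice, 1 in aged mice and 0 in aged mice with stroke, all higher, and all carriers of amino acids. These are shares of 0.926%, 0.463% and 0.0% against 0.509%, 0.258% and 0.058% of all genes tested (0.419% and 0.238% higher in the first 2). Slc7a7 (y+LAT1) pairs with Slc3a2 and exports arginine in exchange for neutral amino acids. In young mice it was at 132, 151 and 151 CPM with vehicle and 249.9, 208 and 237 CPM with bexarotene (0.66 ± 0.08, adjusted p = 0.000459). In aged mice it was at 142, 133 and 135 CPM with vehicle and 193, 183 and 195 CPM with bexarotene (0.46 ± 0.08, adjusted p = 0.0257). With stroke the libraries held 96.0, 100.1 and 92.7 CPM with vehicle and 117, 112 and 124 CPM with bexarotene (0.30 ± 0.08, adjusted p = 0.319), not called. In each of the 3 settings every bexarotene library lay above every vehicle library. In aged mice the summed markers of neutrophils (191 to 409 CPM with vehicle and 584 to 1503 CPM with bexarotene, median log2 fold change 1.70) and of monocytes (55.9 to 100.5 and 111 to 179 CPM, median 0.78) did not overlap either, with 0 of 8 called in each list. There the endothelial sums were apart as well (36.5 to 41.9 CPM with vehicle and 27.6 to 35.6 CPM with bexarotene), with 0 called. With stroke, the sums of border macrophage markers (1019 to 1096 CPM with vehicle and 679 to 929 CPM with bexarotene), astrocyte markers (21.6 to 41.55 and 11.4 to 16.5 CPM) and choroid plexus markers (936 to 3133 and 134 to 705 CPM) were apart, and in young mice those of B cell markers (459.8 to 487 and 294 to 432 CPM), again with 0 called. The part of these lists in the results on bexarotene was not tested. The call in aged mice was lost when any 1 of its 6 libraries was left out (adjusted p = 0.0616 to 0.152), and both calls without the libraries numbered 1 (0.0985 in young mice).

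The other called member, Slc43a2 (LAT4), exports branched-chain and aromatic amino acids. In young mice it was at 121, 117 and 122 CPM with vehicle and 255, 169 and 164 CPM with bexarotene (0.70 ± 0.15, adjusted p = 0.0441). Bexarotene library 1 was the highest, and the groups did not overlap. The call was lost with the replicate block (0.69, adjusted p = 0.0581), without young bexarotene library 1 or any of the vehicle libraries (0.151 to 0.248), and without all libraries numbered 1 (0.539). In aged mice the levels were 109, 108 and 102 CPM and 139, 136 and 152 CPM (0.39 ± 0.15, adjusted p = 0.594), not overlapping and not called.

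Slco2b1 and Slc1a3, which fell with stroke, had higher means with bexarotene in each setting, but edgeR called them in no single one. Slco2b1 was at 2420, 2444 and 2421 CPM in young vehicle and 3659, 2935 and 3056 CPM in young bexarotene libraries (0.39 ± 0.13, adjusted p = 0.269). In aged mice it was at 2012, 1946 and 1986 CPM and 2736, 2683 and 2761 CPM (0.44 ± 0.13, adjusted p = 0.317). In both settings the groups were apart, and with stroke they overlapped (742, 785 and 607 CPM and 911, 598 and 939 CPM, 0.21 ± 0.13). Such separation, in either direction, was found in 37 of the 216 members in young and 29 in aged mice. Its share over all genes was not counted for bexarotene. Slc1a3 was at 298, 379.7 and 355 CPM in young vehicle and 916, 550.4 and 679.7 CPM in young bexarotene libraries (1.03 ± 0.27, adjusted p = 0.139), and at 325, 319 and 458 CPM and 541, 468 and 749.8 CPM in aged ones (0.64 ± 0.27). DESeq2 called Slc1a3 in young mice (adjusted p = 0.0257). The authors' deposited tables list Slc1a3 (0.91), Slc7a7 (0.58), Slc43a2 (0.55) and Slco2b1 (0.32) as higher in young mice, Slc7a7 (0.41), Slco2b1 (0.40) and Slc43a2 (0.30) in aged mice, all log2 fold changes, and no member with stroke.

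**Figure D5:**
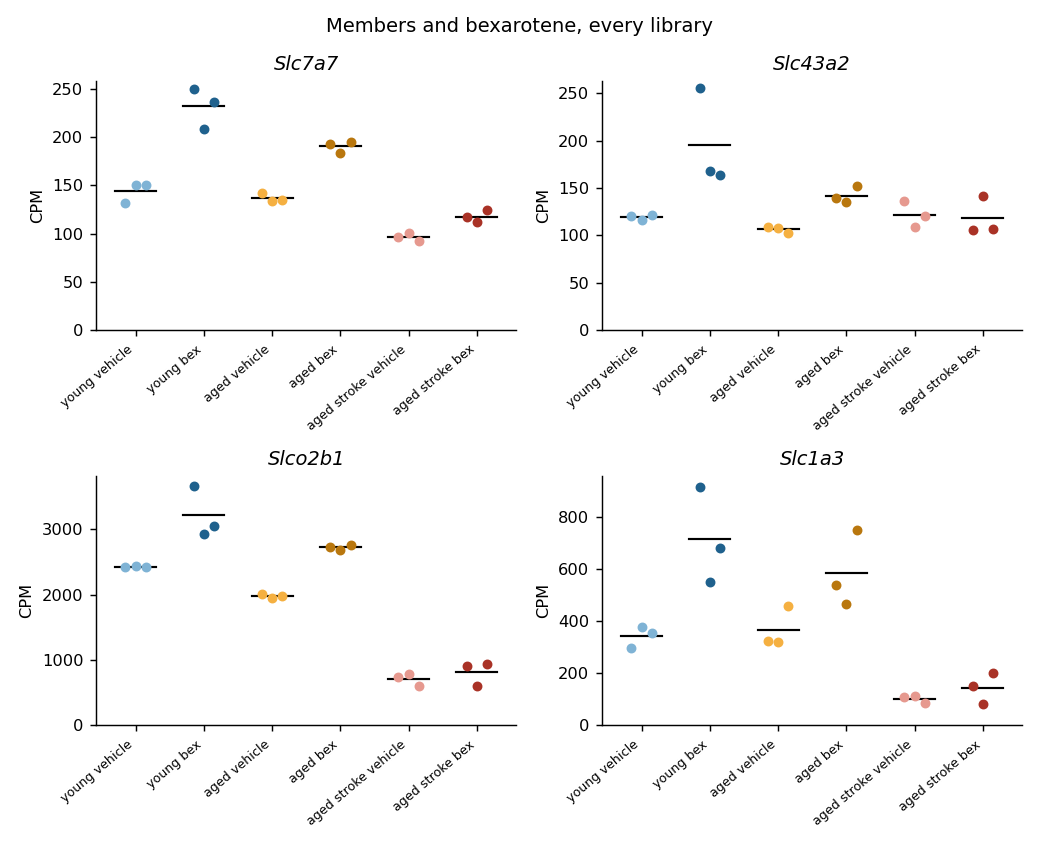
Level of Slc7a7, Slc43a2, Slco2b1 and Slc1a3 in every library (vertical axis, CPM from 0; 3 points per group and a bar at the group mean). In young and in aged mice without stroke every bexarotene library of each gene lies above every vehicle library of the same age, and for Slc7a7 this holds with stroke too. The groups did not overlap, in either direction, in 37 of the 216 members in young and 29 in aged mice.

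Averaged over the 3 settings, 9 bexarotene against 9 vehicle libraries, the edgeR fit called 11 members, 8 higher and 3 lower. This comparison was added after seeing the data, and its share of 5.09% stands against 2.09% of all genes tested (1.38% higher and 0.715% lower). Slc7a7 rose by 0.47 ± 0.05 (adjusted p = 1e-05), Slc1a3 by 0.73 ± 0.16, Slco2b1 by 0.35 ± 0.07, Slc25a20 by 0.39 ± 0.09 and Slc43a2 by 0.35 ± 0.09. Slc25a20, the carnitine-acylcarnitine carrier, was at 24.7, 23.3 and 23.2 CPM and 29.02, 34.1 and 31.7 CPM in young, 18.5, 24.6 and 24.6 CPM and 26.5, 31.2 and 38.5 CPM in aged and 40.5, 37.8 and 32.3 CPM and 39.7, 48.5 and 46.5 CPM in stroke libraries, vehicle first. Its bexarotene libraries were above their vehicle libraries in young and aged mice and overlapped them with stroke. The peptide carrier Slc15a3 rose by 0.37 ± 0.09, the mitochondrial sodium-calcium exchanger Slc8b1 by 0.41 ± 0.10 and the Golgi carrier Slc35c2 by 0.23 ± 0.05. The 3 that fell were the glutamine carrier Slc38a2 (-0.29 ± 0.07), the copper carrier Slc31a2 (-0.35 ± 0.08) and the anion exchanger Slc26a7 (-4.42 ± 1.07). Slc8b1, Slc31a2 and Slc26a7 were named after their values were seen. Slc26a7 rests on few counts: it was at 0 in 8 of the 18 libraries, and its highest value, 8.63 CPM, was in aged vehicle library 1, where the choroid plexus markers summed to 2827 CPM. Without the libraries numbered 1 the calls of Slc7a7, Slc25a20 and Slc31a2 remained. Slc1a3 also lost its call without young vehicle library 1 (adjusted p = 0.0521), Slc25a20 without any of 3 libraries (0.0505 to 0.0641) and Slc35c2 without any of 4 (0.0503 to 0.0542), and Slc15a3, Slc43a2, Slc8b1 and Slc26a7 each without any of 12 to 15 libraries (0.0505 to 0.12). With the replicate block Slc15a3 (0.0536) and Slc8b1 (0.0542) missed the threshold.

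The promoter of Slc7a7 is shown because RXR and its partner receptors are known to bind pairs of the half-site AGGTCA. RefSeq gives 5 starts for the gene, and the 250 bases before 1 of them (GRCm38.p6, chr14:54410204-54410453, minus strand) held 1 match on either strand, which begins 38 bases before the start and is in capitals.
Slc7a7: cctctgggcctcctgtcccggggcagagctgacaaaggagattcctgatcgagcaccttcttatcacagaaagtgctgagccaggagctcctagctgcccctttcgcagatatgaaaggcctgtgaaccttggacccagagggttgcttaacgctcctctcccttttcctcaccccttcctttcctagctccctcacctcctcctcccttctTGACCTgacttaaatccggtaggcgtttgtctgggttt
A single half-site of this kind was found in 15.8% of all genes in the table, in 22 of 162 members, and in 1 of the 6 members with an entry among the 8 called higher over the 3 settings. For stroke, 3 of 33 members that rose and 10 of 47 that fell held it.

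Whether the drug effect differed between settings was tested as well. No member was called for the difference between aged and young mice or between aged mice with and without stroke by edgeR, where 0.0% of all genes were called. An unadjusted p under 0.05 was found for 5 and 7 members (2.31% and 3.24%), against 2.94% and 4.11% of all genes. DESeq2 and limma voom called 0 members too. The lowest p-values for age belonged to Slc41a1 (0.41 ± 0.16, unadjusted p = 0.0172), Slc25a30 (-0.71 ± 0.28) and Slc35g1 (-0.93 ± 0.40), and for stroke to Slc22a23 (-2.50 ± 0.84, unadjusted p = 0.00769), Slc35c2 (0.35 ± 0.13) and Slc25a51 (0.53 ± 0.20), each log2 difference ± SE with an adjusted p of 1.0. In aged mice with stroke, where 0 members were called by edgeR, 16 (7.41%) had an unadjusted p under 0.05 against 6.36% of all genes, DESeq2 called Slc35c2 and limma voom 0. Slc35c2, a Golgi carrier tied to GDP-fucose, was there at 116, 117 and 123 CPM with vehicle and 156, 145 and 160.1 CPM with bexarotene (0.39 ± 0.09, adjusted p = 0.171), without overlap. In this setting the groups did not overlap, in either direction, in 29 of the 216 members.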

How the data were processed

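The authors deposited raw counts per gene for 18 libraries made with SMART-Seq V4 PLUS, and tables of their own log2 fold changes with p-values. Trimmomatic 0.40, STAR 2.7.10a, GATK and R 4.4.2 and the build GRCm39 are named per the submitters' processing notes; the sources used here give no role for each tool, no strand use and no annotation. Identifiers were paired with symbols through GENCODE M21 (52029 matched, the 4977 unnamed held 0.326% of counts), and exon lengths came from it. Without stated strand use, reads of overlapping genes cannot be told apart. The test was that of edgeR 4.0.16 (R 4.3.3; TMM scaling, filterByExpr, robust quasi-likelihood fit over all 18 libraries, 12 residual degrees of freedom), with Benjamini-Hochberg adjustment over 15528 genes. CPM are counts over library totals. The largest limit that a count of 0 allows (3 counts) was 0.396 CPM, for counting error only. Alternatives were DESeq2 1.42.0, limma 3.58.1 (voom), other scalings, filters and level rules, a replicate block and leaving out each library; leaving out the libraries numbered 1, and the mean over 3 settings, were added after seeing the data. Libraries of the same number deviated together in the bexarotene comparison of young mice (correlations 0.259, 0.276 and 0.14, each above 0.1). In the other comparisons they did so in part. The correlations were 0.386, 0.229 and -0.0143 for age and 0.26, 0.243 and -0.0618 for bexarotene in aged mice. They were 0.213, 0.0577 and 0.0349 for stroke and 0.0372, -0.0615 and -0.113 for bexarotene with stroke. The labels do not say whether the numbers mark pairs. All results given are from the fit without the block, and the blocked value stands beside a result whose call it changed. Named members were the highest by level, the largest changes among calls of 10 CPM or more without overlap, the largest per role and a fixed list. The members and lists were chosen with earlier results of these data known, and 1 marker of the microglial list is not reported here. Promoters are RefSeq sequences on GRCm38.p6, not the build of the counts; 162 of 216 members matched by symbol. The fit was tested on simulated data.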

Additional observations from a re-analysis of the deposited data

How the results depend on the processing

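With stroke, the counts of members higher and lower stayed within 1.5 times the reported 46 and 59 under all 18 alternatives run, 39 to 44 higher and 53 to 60 lower when 1 library was left out, and 76 of the 105 calls held under every alternative. The other counts are small and moved readily. For age (1 higher, 2 lower), DESeq2 called 5 higher, limma voom 0 higher and 0 lower, the fit without the filter on low counts 4 higher, and the fit without the libraries numbered 1 called 0 and 0. The 5 CPM level rule left 0 higher. DESeq2 size factors, library totals alone and a fit of only the groups compared left 1 lower. Leaving out 1 library gave 0 to 1 higher and 0 to 2 lower. For bexarotene in young mice (2 higher), DESeq2 size factors, limma voom, only the groups compared and the replicate block each left 1, and the fit without the libraries numbered 1 left 0. Leaving out 1 library gave 1 to 2. In aged mice (1 higher), only the groups compared, leaving out any 1 library and leaving out the libraries numbered 1 each left 0. With stroke (0 called), DESeq2 called 1 higher. Without the filter the counts higher and lower were 5 and 3 in young mice, 4 and 2 in aged mice and 3 and 12 with stroke, and 1 higher for the difference by age and 5 lower for that by stroke. Over the 3 settings (8 higher, 3 lower), limma voom called 5 higher, DESeq2 5 lower, the unfiltered fit 13 lower, and the fit without the libraries numbered 1 called 2 higher and 1 lower; leaving out 1 library gave 4 to 9 higher and 2 to 3 lower. The effect on Slc43a2 with stroke (-0.03; -0.21 to 0.07 when 1 library was left out) changed sign to 0.07, 0.05 and 0.06 without aged stroke bexarotene library 1 or 3 or aged stroke vehicle library 1, and to 0.16 without the libraries numbered 1. The replicate block moved no other count by over 1.5 times. Except where the construction shows it (fewer samples, more genes tested), the cause was not tested. Members below 10 CPM varied by a median of 33.2% or more, so small differences in them were not detectable.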
